A study of Mus musculus with 6 samples.

Results

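The genes described here are 38 genes of the machinery that brings proteins into the endoplasmic reticulum (ER), folds them and disposes of those that fail to fold. They were taken by mouse gene symbol from a list of ER chaperones, folding enzymes, degradation genes, translocon subunits, signal peptidase subunits and oligosaccharyltransferase subunits, and all 38 were found among the 16671 genes of the table. Low-input RNA sequencing gave the expression of these genes in fibro-adipogenic progenitors (FAPs), stromal cells of skeletal muscle, sorted by flow cytometry from hindlimb muscle of wild type mice aged 4 to 5 months. One group of 3 libraries came from FAPs given vehicle (control) and the other group of 3 from FAPs given C1q at 100 µg/ml, and the comparison asks what C1q, the recognition protein of the classical complement pathway, does to expression. The labels do not give the length of the treatment, the strain or sex of the mice, how many mice were pooled, or whether replicates were separate mice or cultures. The p-values therefore measure only the spread between these libraries, which may be technical. The RNA extraction text names muscle stem cells where the sample labels name FAPs.

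Secretory and membrane proteins enter the ER through the SEC61 channel while they are being made, and the translocon-associated protein (TRAP) complex sits beside that channel. Signal peptidase cuts off their leader peptide, oligosaccharyltransferase (OST) attaches glycans to asparagines, and chaperones, lectins and disulfide isomerases fold the chain. Chains that do not fold are passed to ER-associated degradation (ERAD). When unfolded proteins build up, the sensors IRE1, PERK and ATF6 start the unfolded protein response, in which ATF6 and spliced XBP1 raise transcription of many of these genes through the ER stress response element. FAPs make much of the collagen and other matrix of muscle, and all of it passes through this machinery.

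The ER stress response element (ERSE) was looked for in the promoters of the members because it is the site through which that response acts. Promoter sequence of RefSeq, assembly GRCm38.p6, from 250 bases before to 50 bases after the gene start, was at hand for 32 of the 38 members. Hyou1, Spcs3, Sec11c, Ssr2, Manf and Sec61a1 had no sequence and were not searched. The letters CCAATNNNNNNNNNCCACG, read on both strands, were present in 7 of these 32 (21.9%), and in 37 of all 27025 genes with promoter sequence (0.137%). The members were Hspa5, Hsp90b1, Pdia6, Creld2, Syvn1, Canx and Dnajc3. The related letters ATTGGNCCACG (ERSE-II) were found for Dnajb11 and Herpud1, 6.25% of the 32 members against 0.0444% of all genes with promoter sequence. The windows below are read 5′ to 3′ on the strand of the gene, with the element in capitals and up to 20 bases on either side in lower case. In Creld2 and in the second Hsp90b1 window the element lies on the other strand, so the capitals show its reverse complement.
Hspa5, chr2:34772005-34772063, plus strand: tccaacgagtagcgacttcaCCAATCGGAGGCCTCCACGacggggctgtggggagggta
Hsp90b1, chr10:86705618-86705676, minus strand: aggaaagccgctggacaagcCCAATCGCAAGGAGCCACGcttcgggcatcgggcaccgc
Hsp90b1, chr10:86705513-86705571, minus strand: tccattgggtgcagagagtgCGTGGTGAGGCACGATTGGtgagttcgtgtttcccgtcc
Pdia6, chr12:17266471-17266529, plus strand: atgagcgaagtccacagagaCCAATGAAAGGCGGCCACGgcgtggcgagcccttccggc
Creld2, chr15:88819500-88819558, plus strand: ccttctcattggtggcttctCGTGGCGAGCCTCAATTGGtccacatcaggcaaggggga
Syvn1, chr19:6046512-6046570, plus strand: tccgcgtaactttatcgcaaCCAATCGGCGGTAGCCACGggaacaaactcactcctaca
Canx, chr11:50325780-50325838, minus strand: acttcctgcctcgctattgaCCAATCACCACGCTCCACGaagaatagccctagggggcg
Dnajc3, chr14:118937807-118937865, plus strand: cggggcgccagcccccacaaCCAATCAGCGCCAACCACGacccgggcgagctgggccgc
Dnajb11 (ERSE-II), chr16:22857843-22857871, plus strand: ccggcggcgATTGGCCCACGcctggctgc
Herpud1 (ERSE-II), chr8:94386357-94386407, plus strand: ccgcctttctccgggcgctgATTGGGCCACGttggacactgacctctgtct
These are matches of letters and not measured binding. The Dnajb11 match lies just after the gene start and the others lie before it. The letters TGACGTGG, a site of spliced XBP1 and ATF6, were found in none of the 32 members and in 0.714% of all genes with promoter sequence.

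The libraries held from 5379209 reads (control replicate 3) to 38861152 reads (control replicate 1) on the genes of the table, and every member had its fewest reads in control replicate 3. The lowest of these read numbers was 74, for Sdf2l1. FAP markers were present in every library, and 5 of 7 (Pdgfra, Dcn, Lum, Col1a1 and Dpt) were higher with C1q, beside 19.7% of all genes. Ly6a and Cd34 were not called (log2 fold changes 0.15 and 0.20). The 7 summed to a normalised read count of 193612 to 230719 in controls and 326322 to 423776 with C1q. Most of that sum was Col1a1, at 144213 to 166383 in controls and 228338 to 330202 with C1q. Of 6 muscle stem cell and myoblast markers 4 were lower, with sums of 18707, 10419 and 5463 in controls 1, 2 and 3 against 3821 to 5105 with C1q, and Pax7 stood at 0 to 8. The 4 muscle fibre markers summed to 12681 to 50270 in controls and 9058 to 14169 with C1q, with 1 of them called lower. Macrophage markers (4 of 5 in the table, 1 lower) summed to 389 to 663 in controls and 278 to 342 with C1q, with Adgre1 at 0 to 21. Of 5 markers of plasma and B cells, secretory cells rich in this machinery, Cd79a (3 to 6) and Sdc1 were in the table, and neither was called. The median log2 difference over the members was 0.01 between control replicates 1 and 3 and 0.08 between control replicates 1 and 2, and control replicate 1 was the highest control for 15 of 38 members. Without control replicate 1 the members' median log2 fold change was -0.31 and 19 members were called lower, against -0.32 and 24 with all libraries. Over all genes 2582 were then called lower, against 3112 with all libraries. The part of these other markers in the results was not tested. In bulk libraries such as these, fewer cells of a type and less RNA per cell cannot be told apart.

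Most of the machinery was lower in FAPs given C1q. Of the 38 members 24 fell, 3 rose (Dnajb9, Sel1l and Stt3b) and 11 did not pass the test, which was limma-trend on log2(value + 1) with a Benjamini-Hochberg adjusted p below 0.05 over all 16671 genes. Over all genes 18.7% fell and 19.7% rose. The median log2 fold change (C1q minus control) was -0.32 over the members and 0.03 over all genes. In 28 members every C1q library lay below every control library, an order found in 25.4% of all genes, and in 5 members every C1q library lay above every control library, an order found in 26.8% of all genes. The members together took 0.987%, 0.911% and 0.934% of normalised reads in the controls and 0.800%, 0.778% and 0.762% with C1q, so all 3 C1q libraries were below the lowest control. Changes of single members were moderate. The largest was in Sec61b, at 2.14-fold lower, and Ssr2, Sec61g, Sdf2l1, Dad1, Manf and Creld2 were 1.51-fold to 1.81-fold lower.

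**Figure D1:**
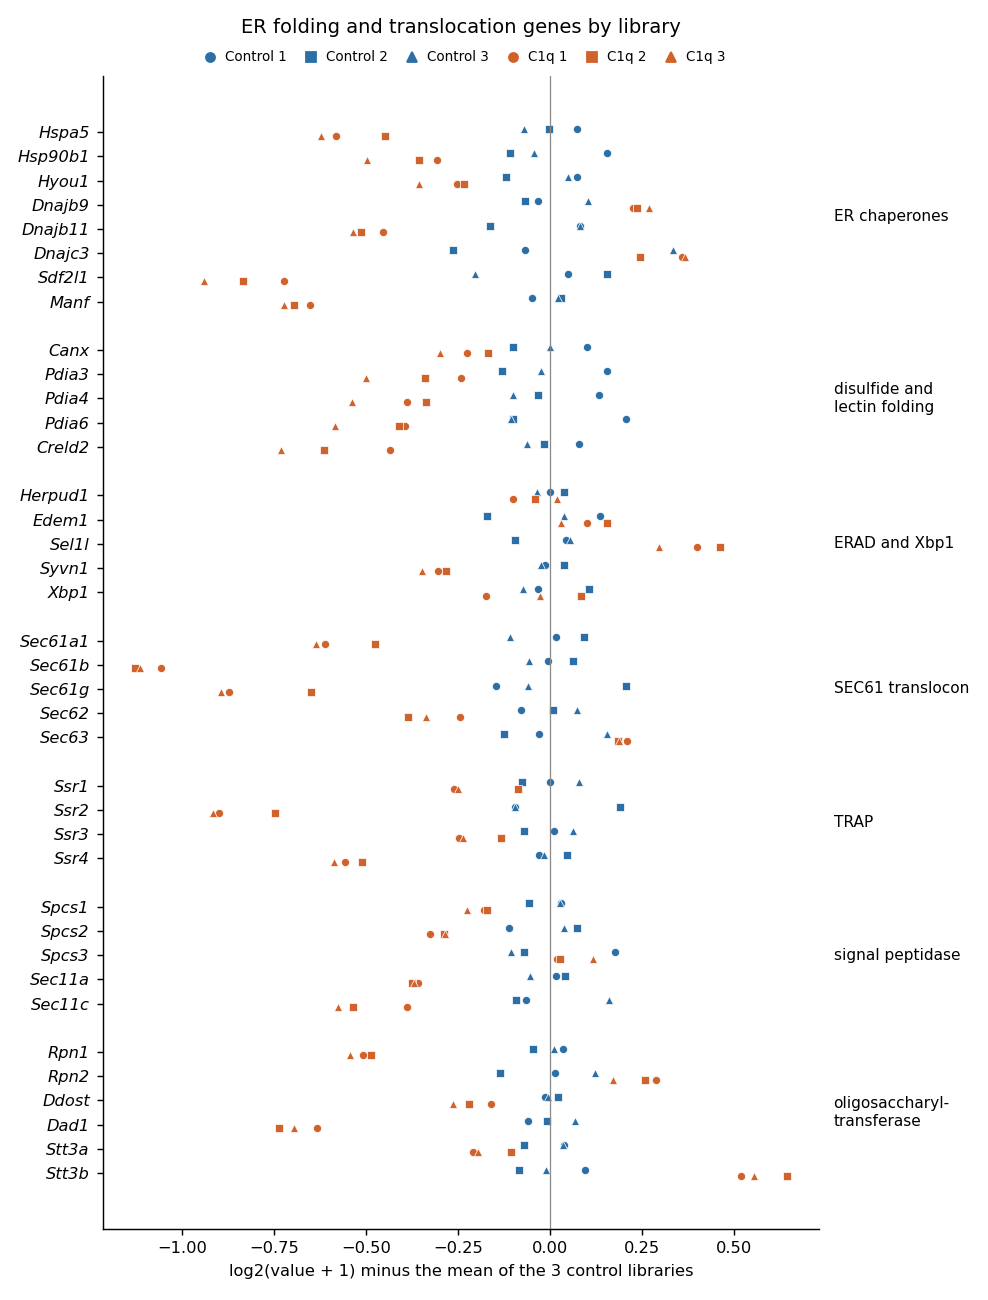
Each library's log2(value + 1) minus the mean of the 3 controls (x axis) for the 38 members (y axis, ordered by sub-complex), with controls in blue and C1q libraries in orange and the shape of the marker giving the replicate number. The orange markers lie left of the blue ones for most SEC61, TRAP and chaperone members and right of them for Stt3b and Sel1l.

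**Figure D2:**
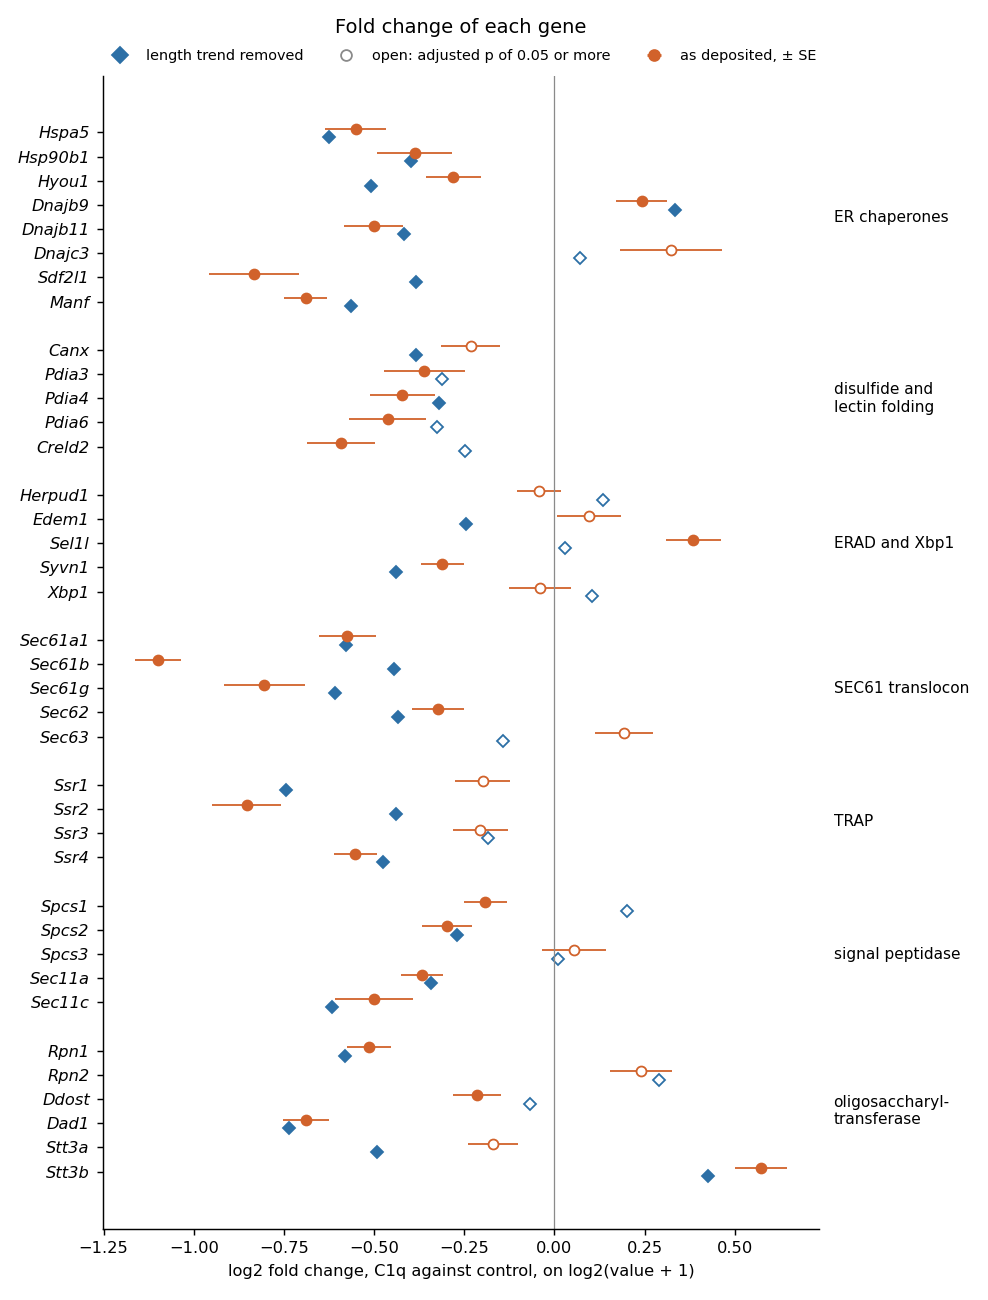
Log2 fold change, C1q against control (x axis), of each member (y axis) with bars of 1 SE (circles, 3 libraries per group), and the same with the trend on transcript length removed (diamonds). Filled markers have an adjusted p below 0.05, and 24 filled circles lie left of 0 and 3 right of it.

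Of the 5 members of the SEC61 translocation channel and its Sec62 and Sec63 partners, 4 fell and 1 did not pass the test, with a median log2 fold change of -0.57. Sec61b encodes the beta subunit of the channel (chromosome 4, 47474661 to 47483233, coordinates in GRCm38 and of the whole gene throughout). Its normalised read count was 1904, 1994 and 1836 in the controls and 918, 874 and 882 with C1q. No C1q library came near a control, and the log2 fold change was -1.10 ± 0.06 (SE), with an adjusted p of 1.46e-04. With the trend on transcript length removed it was -0.45 (adjusted p 0.00208). Sec61a1, the pore-forming alpha subunit (chromosome 6, 88503607 to 88518800), stood at 7537, 7942 and 6917 in controls and 4881, 5361 and 4796 with C1q (-0.57 ± 0.08, adjusted p 0.0014). Sec61g, the gamma subunit, stood at 1334, 1704 and 1416 in controls and 807, 942 and 794 with C1q (-0.81, adjusted p 0.00135). The Sec61g call held with the length trend removed (-0.61, adjusted p 0.00374) but was lost with RefSeq-matched lengths (-0.25, adjusted p 0.0737). The 3 subunits form 1 heterotrimer. The ratio of Sec61b to Sec61a1 was 0.251 to 0.266 in controls and 0.163 to 0.188 with C1q. This difference was not tested, as for all ratios given here. With the length trend removed Sec61a1 fell more than Sec61b, at -0.58 against -0.45. With RefSeq-matched lengths the values were -0.66 for Sec61a1 and -0.405 for Sec61b. Sec62, which assists the entry of small and completed chains, fell by 0.32 on the log2 scale (adjusted p 0.0101), and stood at -0.51 with the RefSeq-matched length trend removed. Sec63, its partner with a J domain that recruits BiP to the channel, stood at 2608 to 3167 in controls and 3230 to 3285 with C1q, above all controls, but did not pass the test (0.19, adjusted p 0.0986).

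In the TRAP complex, whose 4 subunits help some chains to start their passage, 2 subunits fell and 2 did not pass the test, with a median of -0.38. Ssr2, the beta subunit, stood at 4043, 4926 and 4043 in controls and 2315, 2571 and 2290 with C1q, and the groups were far apart (-0.85 ± 0.10 SE, adjusted p 6.05e-04, and -0.44 with the length trend removed). Ssr4, the delta subunit, stood at 3191, 3363 and 3218 in controls and 2212, 2285 and 2167 with C1q (-0.55, adjusted p 5.16e-04). With the length trend removed Ssr4 stood at -0.48 (adjusted p 0.00102), and with RefSeq-matched lengths at -0.01 (adjusted p 0.958). Ssr1 (alpha) and Ssr3 (gamma) had log2 fold changes of -0.20 and -0.21 with adjusted p of 0.0789 and 0.0682, although every C1q library of both lay below every control.

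Signal peptidase had 4 of its 5 subunits lower, with a median of -0.30. With the length trend removed 3 of 5 were lower (median -0.27), and with RefSeq-matched lengths 1 of 5 was lower (median -0.07). Sec11a and Sec11c encode the alternative catalytic subunits. Sec11a stood at 1974, 2008 and 1879 in controls and 1523, 1507 and 1511 with C1q (-0.37 ± 0.06 SE, adjusted p 0.00237). Sec11c, at 364, 357 and 425 in controls, was 290, 262 and 255 with C1q (-0.50, adjusted p 0.00892). The ratio of Sec11a to Sec11c overlapped between the groups, at 4.42 to 5.63 in controls and 5.25 to 5.93 with C1q. Both passed with the length trend removed (-0.34, adjusted p 0.00293, and -0.62, adjusted p 0.00566). Neither passed with RefSeq-matched lengths (-0.08, adjusted p 0.261, and 0.00, adjusted p 0.995). Of the accessory subunits, Spcs2 fell by 0.30 on the log2 scale (adjusted p 0.0114) and Spcs1 by 0.19 (adjusted p 0.0357). The Spcs1 call was lost with the replicate number as a block (adjusted p 0.0538) and without control replicate 1 or 3 or any C1q library, and its direction turned with the length trend removed (0.20). It was also lost with thinned libraries and with DESeq2. Spcs3 did not pass the test, with a log2 fold change of 0.05, a 95% interval of -0.15 to 0.26 and an adjusted p of 0.662.

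Of the 8 chaperones and co-chaperones of the ER lumen 6 fell, 1 rose and 1 did not pass the test (median -0.44). Hspa5 encodes BiP, the ER Hsp70 chaperone that also holds the stress sensors inactive (chromosome 2, 34772090 to 34776529). Its normalised read count was 18347, 17403 and 16609 in controls and 11645, 12786 and 11334 with C1q. The highest C1q library was well below the lowest control, and the change was 1.46-fold lower (log2 -0.55 ± 0.08 SE, adjusted p 0.00209). Manf, a small ER-resident protein that binds BiP (chromosome 9, 106888753 to 106891938), stood at 2689, 2842 and 2823 in controls and 1772, 1718 and 1687 with C1q, and had the lowest p of the chaperone group (-0.69 ± 0.06, adjusted p 2.68e-04). Sdf2l1, a partner of the J-domain co-chaperone ERdj3, stood at 375, 404 and 315 in controls and 219, 203 and 188 with C1q (-0.83, adjusted p 0.00187, and -0.385 with the length trend removed). ERdj3 itself, encoded by Dnajb11, stood at 2934, 2476 and 2933 in controls and 2024, 1940 and 1913 with C1q (-0.50, adjusted p 0.00267). These 4 genes act with BiP or are BiP, and in none of them did a C1q library reach a control.

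Hsp90b1, the ER Hsp90 known as GRP94, fell by 0.39 on the log2 scale, from 18992 to 22801 in controls to 14505 to 16547 with C1q (adjusted p 0.0204). That call was lost without control replicate 1, C1q replicate 2 or C1q replicate 3. Hyou1, the nucleotide exchange factor of BiP, fell by 0.28 (adjusted p 0.0219) and did not pass without control replicate 1 or any C1q library or with the GC trend removed, while with the length trend removed it stood at -0.51. Not all co-chaperones of BiP followed. Dnajb9 (ERdj4), which hands unfolded chains to degradation and restrains IRE1, stood at 902, 880 and 991 in controls and 1078, 1087 and 1111 with C1q, all above the controls. Its log2 fold change was 0.24, with an adjusted p of 0.0287 that was lost without control replicate 1 or 2 or any C1q library. It was also lost with all libraries thinned to the depth of the shallowest (adjusted p 0.131) and with a trend on GC content removed (0.08, adjusted p 0.355). Dnajc3, a co-chaperone also known as an inhibitor of PERK, stood at 3600, 3142 and 4753 in controls and 4841, 4470 and 4861 with C1q. Its groups overlapped through control replicate 3 (log2 0.32, 95% interval -0.01 to 0.66, adjusted p 0.114), and it passed when that library was left out or the replicate number entered as a block (adjusted p 0.0447). With the length trend removed Dnajc3 stood at 0.07 (adjusted p 0.726), and at 0.005 (adjusted p 0.983) with RefSeq-matched lengths. The ratio of Hspa5 to Dnajb9 was 16.8 to 20.3 in controls and 10.2 to 11.8 with C1q.

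Among the disulfide isomerases and lectin-type folding genes 4 of 5 fell, with a median of -0.42. With the length trend removed 2 of 5 fell, or 5 of 5 with RefSeq-matched lengths, under which Creld2, Pdia3 and Pdia6 passed (adjusted p 0.0371, 0.0341 and 0.025). Creld2, a stress-inducible ER protein with isomerase activity, stood at 887, 831 and 804 in controls and 621, 549 and 506 with C1q (-0.59 ± 0.09 SE, adjusted p 0.00235). With the length trend removed it stood at -0.25 (adjusted p 0.0822). Pdia4 and Pdia6 encode disulfide isomerases. Pdia4 stood at 10059, 8982 and 8566 in controls and 7015, 7263 and 6320 with C1q (-0.42, adjusted p 0.0085). Pdia6 stood at 11467, 9272 and 9242 in controls and 7559, 7477 and 6636 with C1q (-0.46, adjusted p 0.0115, or 0.052 with the length trend removed). Both were lower in every C1q library than in every control. Pdia3, the isomerase that works on glycoproteins with calnexin and calreticulin, had the highest level per kilobase of transcript of all members in controls (8616) and fell by 0.36 on the log2 scale (adjusted p 0.0379). The Pdia3 call was lost without control replicate 1 or 3 or any C1q library, and with the length trend removed (adjusted p 0.0737). Canx encodes calnexin, the membrane lectin that holds new glycoproteins, and did not pass the test at 10469 to 12043 in controls and 9117 to 9982 with C1q (-0.23, adjusted p 0.0584). It passed with the length trend removed (-0.38, adjusted p 0.0084) and without control replicate 2. Of the 7 members with an ERSE in the windows above, Hspa5, Hsp90b1, Pdia6, Creld2 and Syvn1 fell and Canx and Dnajc3 did not pass the test. Among all 38 members 24 fell, but these include Hyou1, Sec11c, Ssr2, Manf and Sec61a1, which had no promoter sequence. Spcs3, also without sequence, did not pass the test. Whether the element goes with the fall was not tested. Of those with ERSE-II, Dnajb11 fell and Herpud1 did not pass.

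Of the 4 ERAD members and Xbp1, 1 fell, 1 rose and 3 did not pass the test, with a median of -0.04 (0.03 with the length trend removed). The summed level of the 5 was 12945 to 13413 in controls and 13917 to 15028 with C1q. Sel1l and Syvn1 encode the adaptor and the ubiquitin ligase (HRD1) of 1 membrane complex. Sel1l (chromosome 12, 91806043 to 91849157) stood at 4990, 4530 and 5025 in controls and 6388, 6670 and 5941 with C1q, all above the controls (0.39 ± 0.08 SE, adjusted p 0.00598). With a trend on transcript length removed the log2 fold change of Sel1l was 0.03 (adjusted p 0.785). Syvn1 stood at 1612, 1670 and 1598 in controls and 1318, 1338 and 1277 with C1q, all below the controls (-0.31 ± 0.06, adjusted p 0.00498). The ratio of Syvn1 to Sel1l was 0.318 to 0.369 in controls and 0.201 to 0.215 with C1q. Herpud1, a stress-inducible partner of that ligase, had a log2 fold change of -0.04 (95% interval -0.19 to 0.10, adjusted p 0.629). Edem1, which marks misfolded glycoproteins for disposal, had one of 0.10 (adjusted p 0.439), against -0.24 (adjusted p 0.0472) with the length trend removed. Xbp1 stood at 2796, 3082 and 2721 in controls and 2539, 3032 and 2808 with C1q, so the groups overlapped (-0.04, 95% interval -0.24 to 0.16, adjusted p 0.752). Gene-level reads do not separate the spliced from the unspliced Xbp1 message.

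The 6 OST members moved in different directions: 3 fell, 1 rose and 2 did not pass the test, with a median of -0.19 and a summed level of 37340 to 39726 in controls and 35402 to 37078 with C1q. Stt3a and Stt3b encode alternative catalytic subunits, of which STT3A works at the translocon while the chain enters and STT3B acts on sites that were skipped. Stt3b (chromosome 9, 115242470 to 115310468) stood at 3492, 3082 and 3244 in controls and 4684, 5102 and 4799 with C1q. Every C1q library was far above the controls, a 1.49-fold rise (log2 0.57 ± 0.07 SE, adjusted p 9.11e-04). Stt3a stood at 8252, 7655 and 8239 in controls and 6956, 7467 and 7026 with C1q (-0.17 ± 0.07, adjusted p 0.0907), and passed with the length trend removed (-0.49, adjusted p 0.00131), when Stt3b stood at 0.43 (0.35 with RefSeq-matched lengths). The ratio of Stt3a to Stt3b was 2.36, 2.48 and 2.54 in controls and 1.48, 1.46 and 1.46 with C1q, with little spread in either group. Per kilobase of transcript, Stt3a stood at 1372 in controls and 1219 with C1q, and Stt3b at 775 in controls and 1152 with C1q.

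The shared OST subunits were also unequal. Dad1 (chromosome 14, 54235485 to 54253929) stood at 2637, 2733 and 2882 in controls and 1773, 1650 and 1696 with C1q (-0.69 ± 0.06 SE, adjusted p 3.43e-04). Rpn1 (ribophorin I) stood at 6861, 6476 and 6746 in controls and 4709, 4774 and 4591 with C1q (-0.51 ± 0.06, adjusted p 7.39e-04). Both had no overlap between groups. Rpn2 (ribophorin II) stood at 7991, 7196 and 8617 in controls and 9667, 9466 and 8913 with C1q, above all controls without passing the test (0.24, adjusted p 0.0624), and it passed without control replicate 3. The ratio of Rpn1 to Rpn2 was 0.783 to 0.900 in controls and 0.487 to 0.515 with C1q. Ddost (OST48) fell by 0.21 on the log2 scale (adjusted p 0.0373), a call lost when any 1 of the 6 libraries was left out. It was also lost under the replicate block (adjusted p 0.0506), and with the length or the GC trend removed. Of 7 further OST subunits and partners, 4 fell and 0 rose. Krtcap2, Ostc, Ost4 and Tmem258, small subunits, had log2 fold changes of -0.62, -0.59, -0.59 and -0.54, while Magt1 and Tusc3, the oxidoreductase subunits of the STT3B form, had 0.04 and -0.17 (adjusted p 0.743 and 0.114). Mlec, a lectin that binds the complex, also did not pass (0.03, adjusted p 0.811). With the length trend removed, Tmem258 (-0.05) and Ost4 (adjusted p 0.0732) no longer passed, Ostc stood at -0.36 and Krtcap2 at -0.20, and Mlec passed as lower (-0.295, adjusted p 0.0371). Krtcap2 did not pass with RefSeq-matched lengths (adjusted p 0.151).

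**Figure D3:**
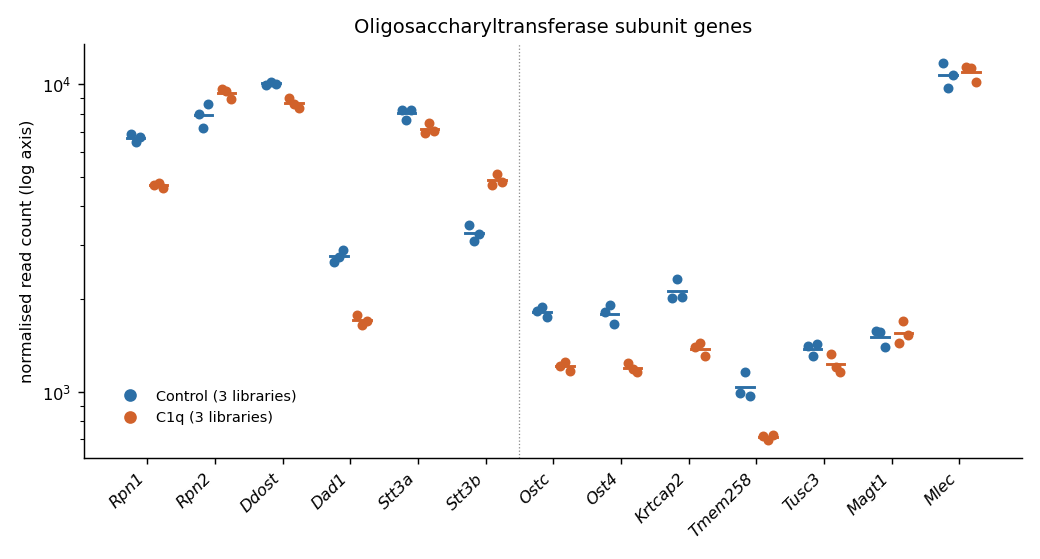
Normalised read count (y axis, log scale) of the 6 OST members, left of the dotted line, and of 7 further OST subunits and partners, right of it, in each of the 3 control and 3 C1q libraries (points) with group means (lines). Stt3b lies higher with C1q and Dad1 and Rpn1 lower, each without overlap between groups.

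The size of the change went with transcript length among the members, as it did over all genes. Pearson's r of the log2 fold change with log transcript length was 0.57 over the 38 members for the longest annotated transcript and 0.65 for RefSeq-matched transcripts, against 0.42 (12454 genes) and 0.43 (12404 genes) over all genes whose mean was 20 or more. These genes share the same 6 libraries and are not independent replicates. Of the 9 members with a RefSeq-matched length under 1500 bases 9 fell (median -0.59). Of the 20 members from 1500 to under 4000 bases 14 fell and 1 rose (median -0.34), and of the 9 of 4000 bases or more 1 fell and 2 rose (median 0.10). With the length trend over all genes removed, 23 members fell and 2 rose (Dnajb9 and Stt3b), beside 18.8% and 14.6% of all genes, and the members' median was -0.36. Pdia3, Pdia6, Creld2, Sel1l, Spcs1 and Ddost then no longer passed, and Canx, Edem1, Ssr1 and Stt3a passed as lower. Ssr1 moved the most among these 4, from -0.20 to -0.75 (adjusted p 4.84e-04). Under both length measures the chaperone genes Hspa5, Hsp90b1, Hyou1, Dnajb11, Sdf2l1 and Manf kept adjusted p below 0.05, as did Pdia4 and Syvn1. The same held for Sec61a1, Sec61b, Sec62, Ssr2, Spcs2, Rpn1 and Dad1, and for the rises of Stt3b and Dnajb9. What sets the length trend was not tested.

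**Figure D4:**
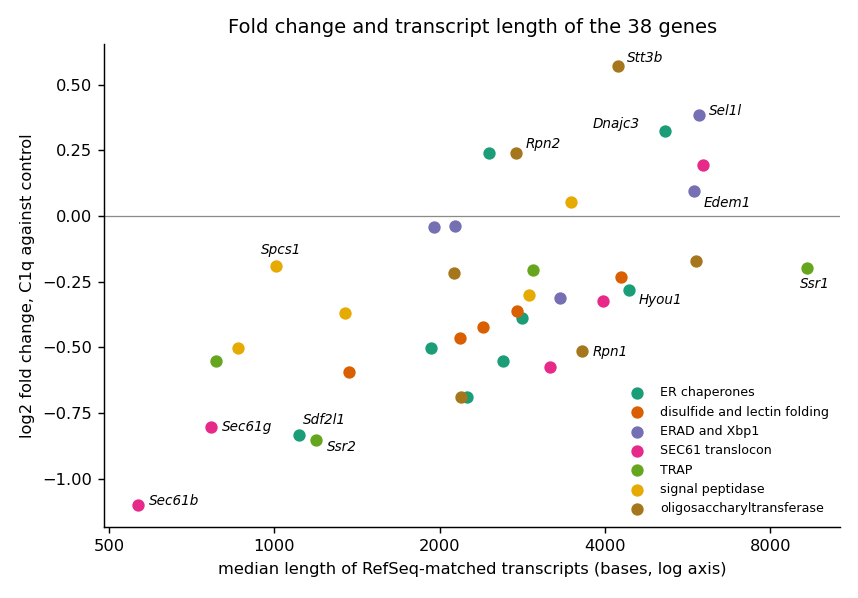
Log2 fold change of each of the 38 members (C1q against control, y axis) against the median length of its RefSeq-matched transcripts in bases (x axis, log scale), coloured by sub-complex. Sec61b, Ssr2, Sdf2l1 and Sec61g lie lowest at the short end, and Stt3b, Sel1l and Dnajc3 lie highest among the members of 4000 bases or more.

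Genes of the same pathway outside the members were taken as lists. Beside their counts, 18.7% of all genes fell and 19.7% rose, or 18.8% and 14.6% with the length trend removed. As single libraries were left out, 2259 to 3583 of all 16671 genes fell and 2329 to 3659 rose. Of 28 other ER folding genes 9 fell and 4 rose (median -0.06), and with the length trend removed 6 fell and 7 rose. Leaving out 1 library gave 5 (without C1q replicate 3) to 11 lower and 1 (without C1q replicate 2), 2 (without C1q replicate 1 or 3) to 6 higher. Erp29, a redox-inactive relative of the isomerases, fell by 0.65 on the log2 scale (adjusted p 6.66e-04), and Fkbp11 and Ppib, prolyl isomerases, fell by 0.93 (adjusted p 0.00258) and 0.36 (adjusted p 0.00297). With the RefSeq-matched length trend removed Ppib stood at 0.13 and Fkbp11 at -0.35 (adjusted p 0.053), and neither passed. Ero1b, an oxidase that recharges the disulfide isomerases, stood at 61.2, 66.4 and 76.5 in controls and 119, 111 and 109 with C1q (0.73, adjusted p 0.00942). Calr, Cnpy3, Txndc5, Cnpy2, Fkbp2 and P4hb made up the rest of the falls (-0.50, -0.36, -0.32, -0.47, -0.46 and -0.34). Calr and Txndc5 passed under both length measures, P4hb with RefSeq-matched lengths only, and Cnpy3, Cnpy2 and Fkbp2 under neither. The calls of Txndc5, Cnpy2, Fkbp2 and P4hb were lost in some fits with 1 library left out. Fkbp14, Hspa13 and Fkbp9 made up the rest of the rises. All of these are named here after their values were seen. Hspa13 did not pass with the length trend removed, nor Hspa13 and Fkbp9 with RefSeq-matched lengths, nor Ero1b with thinned libraries. Of 25 genes of targeting and membrane insertion 12 fell and 3 rose (median -0.23), but 7 fell and 2 rose with the length trend removed, and 0 rose without C1q replicate 1 or 2. The rises were Get1, Tram2 and Srp54a, named after their values were seen, and Tram2 and Srp54a did not pass with the length trend removed. Get3, the carrier of tail-anchored proteins, Srprb, a subunit of the receptor for the signal recognition particle, and Emc4 and Emc2, of the ER membrane protein complex, had log2 fold changes of -0.93, -0.46, -0.61 and -0.47. Emc4 and Emc2 did not pass with the length trend removed (adjusted p 0.333 and 0.0596), and Get3 stood at -0.54. The other falls, named after their values were seen, were Srp19, Srp9, Srp14, Srp68, Emc3, Emc6, Emc7 and Get4. Of these Srp19, Srp9, Emc6 and Emc7 passed with the length trend removed, and Srp9, Srp68 and Emc7 with RefSeq-matched lengths. The calls of Srp68, Emc3 and Get4 were lost in some fits with 1 library left out.

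Of 20 further ERAD genes 6 fell and 4 rose (median -0.12), with 3 lower without C1q replicate 1 or 2. Selenok, a selenoprotein of the ER membrane, and the ubiquitin-conjugating enzymes Ube2j2 and Ube2g2 had log2 fold changes of -0.69, -0.57 and -0.55, and the ubiquitin ligase Rnf139 one of 0.42 (0.19 and not called with the RefSeq-matched length trend removed, and not called with the GC trend removed). Selenok stood at -0.45 with the length trend removed. Selenos, Aup1 and Os9 were the other falls (-0.41, -0.26 and -0.19), and none of them passed under either length measure. Their calls were also lost in some fits with 1 library left out. Herpud2, Man1b1 and Faf2 were the other rises. These falls and rises are named after their values were seen. Faf2 did not pass under the replicate block (adjusted p 0.0511) or with the length trend removed (0.04, adjusted p 0.611), and Man1b1 did not with RefSeq-matched lengths. Of 14 sensors and regulators of the unfolded protein response 4 fell and 3 rose (median -0.06). The counts were 5 and 5 under the replicate block and 2 and 2 with the length trend removed, when 18.8% of all genes fell and 14.6% rose. With RefSeq-matched lengths 4 fell and 2 rose, beside 2776 and 2092 of 14821 genes. Ern1, which encodes IRE1, stood at 239, 185 and 255 in controls and 439, 512 and 529 with C1q, and the groups were far apart (1.13, adjusted p 9.36e-04). Creb3l2, an ER-bound transcription factor that raises secretory pathway genes, stood at 1307, 1055 and 1360 in controls and 2144, 2588 and 2456 with C1q (0.95, adjusted p 7.85e-04). With the length trend removed Ern1 stood at 0.72 and Creb3l2 at 0.54, and both passed. Atf4, the transcription factor downstream of PERK, fell by 0.73 on the log2 scale (adjusted p 9.11e-04) and Creb3 by 0.38 (adjusted p 0.00383). Creb3 did not pass with the length trend removed (adjusted p 0.126) and passed with RefSeq-matched lengths (-0.255, adjusted p 0.0447). Ddit3, Atf6b and Mbtps2, named after their values were seen, made up the rest of the calls with log2 fold changes of -0.78, -0.34 and 0.39. None of these 3 passed with the length trend removed (adjusted p 0.193, 0.0838 and 0.222). With RefSeq-matched lengths Atf6b passed (-0.34, adjusted p 0.0324), and Ddit3 and Mbtps2 did not (adjusted p 0.162 and 0.454). Eif2ak3, which encodes PERK, and Atf6 did not pass the test (0.05, adjusted p 0.76, and 0.27, adjusted p 0.101), and stood at -0.13 and -0.16 with the length trend removed. Atf6 passed with the replicate number as a block (adjusted p 0.0337).

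**Figure D5:**
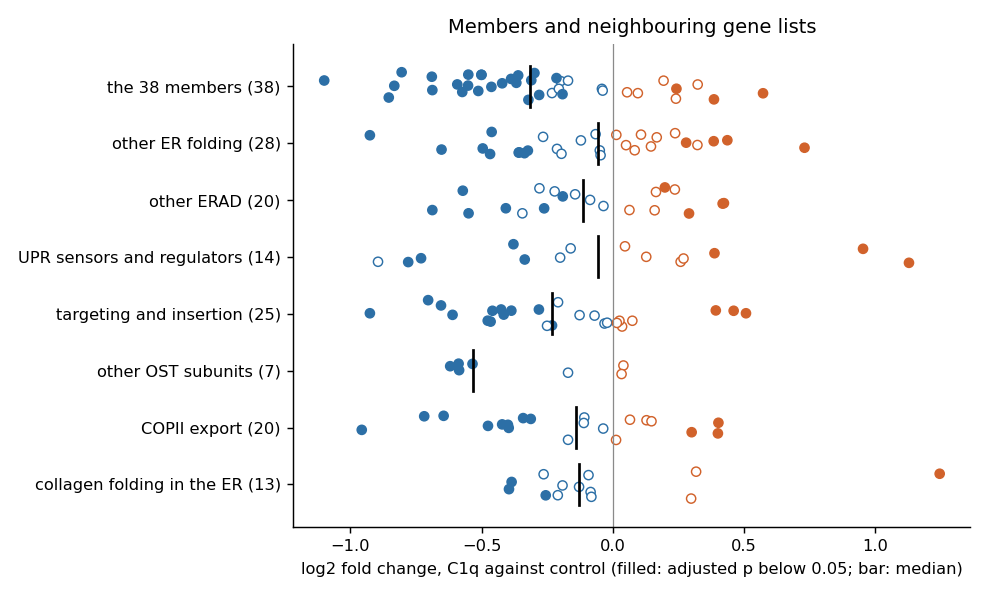
Log2 fold change, C1q against control (x axis), of every measured gene (points) in the 38 members and in 7 neighbouring gene lists (y axis, number of genes in parentheses), with the median as a bar and filled points for an adjusted p below 0.05. The members' median of -0.32 lies left of those of all lists other than the further OST subunits.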

How the data were processed

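The series holds 6 RNA-seq libraries of FAPs, 3 given vehicle and 3 given C1q, with cDNA made by a low-input SMART-Seq kit from 10 ng of total RNA per the labels. The deposited table holds a normalised signal, that is, reads of each Entrez gene scaled by 1 factor in each library, where its headers speak of counts. The values are whole multiples of 1 read in each library, so 100% of them gave whole reads within 0.001 of a read, and tests on these recovered reads served as alternatives. One read is worth 4.25 units in control replicate 3 and 0.583 to 0.975 in the others, so control replicate 3 is the least precise. Trimmomatic, HISAT2, featureCounts, DESeq2 and build mm10 appear in the submitters' processing notes. Their versions, the annotation and whether strand was used: not given in the sources used here. Reads of Hsp90b1, Manf, Pdia3, Pdia6, Rpn2, Spcs1, Spcs3 and Syvn1 therefore cannot be told apart from those of 1810014B01Rik, Dcaf1, Catsper2, Atp6v1c2, Mroh8, Glt8d1, Asb5 and Mrpl49, whose exons overlap theirs on the other strand, and Manf and Sec11a also share exon sequence with Rbm15b and Nmb on the same strand. Outside the members, only the genes taken from the neighbouring lists by lowest p were searched for such overlaps. Of these Creb3, Emc4, Erp29, Kdelr3, Krtcap2, Ost4, Ppib, Rnf139, Surf4, Tmem258 and Fkbp10 also overlap a gene on the other strand.

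Symbols (16077 of 16671 IDs) and promoters came from RefSeq tables of GRCm38.p6, and transcript lengths (14933 IDs, 89.6%) from GENCODE vM21. The test was limma-trend (limma 3.58.1, R 4.3.3) on log2(value + 1) over all genes, with Benjamini-Hochberg adjusted p below 0.05. Genes with a mean under 1 were to be left out, which removed 0. All fold changes refer to log2(value + 1) and so are too small for genes of low level. A level per kilobase is the normalised read count divided by the RefSeq-matched transcript length. Alternatives were pseudocounts of 0.5 and 5, a mean of at least 10, edgeR 4.0.16, DESeq2 1.42.0 and limma-voom on recovered reads, the replicate block, each library left out, thinning to 5379209 reads, and a loess trend (span 0.5, fitted where the mean was 20 or more) on transcript length taken out, alone or with the block. Trends on GC content and on RefSeq-matched length were added after seeing the data. The tests were checked on simulated data.

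Deviations of same-numbered libraries from their group means correlated at 0.123, 0.175 and 0.132, all above the 0.1 taken as the limit for pairing. Differently numbered libraries were not compared in this way, so these weak correlations do not establish a pairing. The labels do not state it. Printed calls come from the unpaired fit, with the replicate block as an alternative. No 2 replicates were alike within sampling noise (chi-square per degree of freedom 17.6 to 42.9). All members were named, and in each neighbouring list up to 4 genes with the lowest p. The members and lists were chosen with earlier results of these data known.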

Additional observations from a re-analysis of the deposited data

How the results depend on the processing

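Across the alternatives 19 to 28 members fell and 2 to 6 rose, beside 24 and 3. Over all genes tested (13910 to 16671) 2259 to 3797 fell and 2092 to 3659 rose across the alternatives, beside 3112 and 3277. With 1 library left out 2259 to 3583 of all 16671 genes fell and 2329 to 3659 rose. Leaving out 1 library gave 19 to 24 lower and 2 to 6 higher, the 6 without control replicate 3, when Dnajc3, Sec63 and Rpn2 also passed. The replicate block gave 22 lower and 4 higher. It ended the calls of Spcs1 and Ddost, added Dnajc3, and changed no other call of a member. Over all genes 3277 rose, against 2183 with the length trend removed and 2092 with RefSeq-matched lengths. Of 684 values of members under alternatives 584 kept direction and side of the threshold, 49 were no longer called, 29 became called and 22 turned direction. Of 504 values of the 28 genes that the naming rule took from the neighbouring lists 477 kept both, 25 were no longer called and 2 turned. Among the members and these 28 genes the values that turned were, with the length trend removed (and with the block as well), Herpud1 0.13, Xbp1 0.11, Edem1 -0.24, Sec63 -0.14 and Spcs1 0.20. With RefSeq-matched lengths they were Herpud1 0.067, Xbp1 0.031, Edem1 -0.29, Sel1l -0.004, Sec63 -0.21, Spcs1 0.24, Spcs3 -0.067, Sec11c 0.001, Ppib 0.13 and Tmem258 0.19. With the GC trend removed they were Edem1 -0.054 and Spcs3 -0.17. Xbp1 ranged from -0.100 to 0.028 as single libraries were left out. Of the genes named outside that rule, Sec16a (-0.22), Mlec (-0.295), Atf6 (-0.16), Eif2ak3 (-0.13), Magt1 (-0.14), Srp14 (0.22) and Selenos (0.006) turned with the length trend removed. With RefSeq-matched lengths Sec16a, Mlec, Atf6, Magt1, Tusc3 (0.06), Faf2 (-0.03), Srp14 (0.15) and Fkbp2 (0.17) turned. The cause was not tested. Depth limits Sdf2l1 and Sec11c most, with 74 and 100 reads in control replicate 3.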

Other observations

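Of 20 genes of COPII vesicle export from the ER 9 fell and 3 rose (median log2 fold change -0.14). Over all genes 18.7% fell and 19.7% rose. With the length trend removed 10 fell and 2 rose, beside 18.8% and 14.6% of all genes. Only 1 rose without C1q replicate 2, when 2329 of all 16671 genes rose. Kdelr3 and Kdelr2, receptors that return escaped ER proteins, had log2 fold changes of -0.96 (adjusted p 2.27e-04) and -0.48. Sec13, a subunit of the outer COPII coat, had one of -0.72, and Surf4, a cargo receptor, one of -0.42. The other falls were Sar1b, Preb, Tfg, Sec23b and Kdelr1. Of these Preb and Sec23b passed under both length measures, Tfg with RefSeq-matched lengths only, and Sar1b and Kdelr1 under neither. The Kdelr1 call was lost in some fits with 1 library left out. The 3 that rose were Sec24b, Sec16a and Mia3, at 0.40, 0.30 and 0.40. These other falls and the rises are named after their values were seen. With the trend on transcript length removed Kdelr3, Kdelr2 and Sec13 stood at -0.63, -0.27 and -0.46, Sec16a turned to -0.22 and Sec24b did not pass (0.15, adjusted p 0.114).

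Among 13 genes that fold and modify collagen in the ER 3 fell and 1 rose (median -0.13), beside 18.7% and 19.7% of all genes. Without control replicate 3, 2 fell and 3 rose, beside 3583 and 3659 of all 16671 genes. P4ha3, a catalytic subunit of collagen prolyl hydroxylase, stood at 1337, 941 and 1309 in controls and 3102, 2617 and 2705 with C1q, with no overlap (1.25, adjusted p 6.41e-04). P3h1 and Fkbp10, a prolyl hydroxylase and a prolyl isomerase of procollagen, had log2 fold changes of -0.40 and -0.39, and Plod1, a lysyl hydroxylase, one of -0.26 (adjusted p 0.0269) that did not pass without control replicate 2 or 3 or any C1q library or with the GC trend removed, and stood at -0.39 with the length trend removed. Serpinh1, the collagen chaperone HSP47, stood at 35757 ± 1951 in controls and 30986 ± 3252 with C1q (SD, n = 3) and did not pass the limma-trend test (-0.21, adjusted p 0.186).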
